A study of Mus musculus with 24 samples.

Results

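Costimulatory and checkpoint receptors and their ligands, the surface proteins that set how strongly a T cell answers its antigen, were examined in the terminal ileum of young mice. The genes were those of Cd28, Cd80, Cd86, Icos, Icosl, Pdcd1, Cd274, Btla, Tigit and Lag3 that had an entry of their own in the expression table, which held for 9 of these 10 names among 547 genes. Lag3 was not among the genes analysed here. All mice were C57BL/6, were nursed by their dams and were sampled at week 7 of life. The 7 Control mice (4 male and 3 female) received no antibiotic. The 7 PAT1 mice (4 male and 3 female) received 1 pulsed antibiotic treatment, an early course of the macrolide tylosin that reached the nursing pups through the milk. The 10 PAT3 mice (4 male and 6 female) received 3 courses, that early one and 2 more after weaning. Because each litter was put into 1 group as a unit and cages were kept by sex and treatment, treatment cannot be told apart from litter or cage, and p-values measure the spread between mice taken as independent.

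An antigen receptor signal alone activates a naive T cell poorly, and a second signal comes from costimulation. CD28 receives it from CD80 and CD86 on antigen presenting cells, and ICOS, which appears after activation, receives it from ICOSL on B cells, myeloid cells and epithelium. Checkpoint receptors oppose these signals: PD-1, the product of Pdcd1, is engaged by PD-L1, the product of Cd274, BTLA by HVEM (Tnfrsf14), and TIGIT competes with the activating receptor CD226 for a shared ligand. In the gut these pairs are known for their part in the balance between tolerance of food and microbes and defence, and ICOS in particular for help to B cells that make IgA.

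The promoters of the 3 genes with a sequence at hand that differed from Control in both antibiotic groups are shown because they are the stretches next to which regulators of these transcripts would be looked for. They span 250 bases before to 50 after the start in the RefSeq annotation of GRCm38.p6, at chr19:29367188-29367487 on the plus strand for Cd274, chr10:78069118-78069417 on the plus strand for Icosl and chr16:43664135-43664434 on the minus strand for Tigit, and the capitals mark a match to GAAANNGAA, a paired core of the sites bound by interferon regulatory factors.
Cd274: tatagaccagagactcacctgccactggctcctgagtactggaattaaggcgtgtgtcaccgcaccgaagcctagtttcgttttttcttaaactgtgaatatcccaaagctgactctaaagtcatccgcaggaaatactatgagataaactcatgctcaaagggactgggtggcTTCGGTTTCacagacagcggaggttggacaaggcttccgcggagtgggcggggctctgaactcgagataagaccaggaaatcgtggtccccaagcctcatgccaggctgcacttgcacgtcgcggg
Icosl: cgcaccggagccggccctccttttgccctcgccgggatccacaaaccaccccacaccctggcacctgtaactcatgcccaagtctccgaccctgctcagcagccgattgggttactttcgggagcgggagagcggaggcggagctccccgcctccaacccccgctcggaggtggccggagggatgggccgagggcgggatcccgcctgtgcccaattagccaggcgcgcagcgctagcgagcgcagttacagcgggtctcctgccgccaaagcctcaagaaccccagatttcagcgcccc
Tigit: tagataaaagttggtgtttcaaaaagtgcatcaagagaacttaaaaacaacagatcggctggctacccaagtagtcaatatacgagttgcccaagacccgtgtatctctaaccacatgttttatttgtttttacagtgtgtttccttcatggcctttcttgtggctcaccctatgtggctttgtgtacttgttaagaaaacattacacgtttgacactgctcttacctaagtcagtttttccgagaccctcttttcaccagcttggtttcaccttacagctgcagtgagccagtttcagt
Of the 9 genes, 6 matched an entry (Pdcd1, Icosl, Cd80, Tigit, Btla and Cd274), and Cd28, Cd86 and Icos are named only. Both strands were searched. GAAANNGAA occurred 1 time each in the windows of Cd274, on the opposite strand and with its first base at -76 from the start, and Btla, with its first base at -210. It occurred in 8.56% of all 32851 promoters of the same length. TTCNNNGAA, the core of STAT factor sites, was found in none of the 6 windows and in 8.30% of all promoters. The 2 patterns were chosen as textbook motifs of interferon and cytokine responses, and a match is a description of letters and not a site in use.

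The measurement was the NanoString nCounter mouse immunology assay, in which colour-coded probes are counted on total RNA without amplification. Values are log2 normalized counts as deposited, and a difference of 1 on this scale is a change by a factor of 2. Probes of different genes capture with different efficiency, so levels were compared between groups and not between genes. Total counts ran from 445534 to 750256 in Control, from 171671 to 782392 in PAT1 and from 265500 to 668511 in PAT3. PAT1 replicate 1 was the shallowest sample, and PAT1 replicate 7 stood apart with the highest B cell marker mean. Enterocyte and lymphocyte markers were counted in every sample. In such bulk tissue, fewer cells of a type and less RNA per cell cannot be told apart.

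In PAT1, Cd274 and Tigit fell and Icosl rose. In PAT3, Cd274, Tigit and Icos fell and Icosl rose. Each gene was tested with limma over all genes of the table, and called means an adjusted p (Benjamini-Hochberg over all genes) under 0.05. Among the 3 groups 5 of the 9 genes were called (Cd274, Tigit, Icosl, Icos and Btla), beside 34.6% of all genes. Of the 9 genes, 3 were called in PAT1 against Control (1 higher and 2 lower), where 18.5% of all genes were called, 7.31% higher and 11.2% lower. In PAT3 against Control 4 of 9 were called (1 higher and 3 lower), where 31.8% of all genes were called, 13.9% higher and 17.9% lower. Both comparisons use the same Control samples. The median difference of the 9 genes was -0.052 in PAT1 and -0.41 in PAT3, beside 0.0099 and 0.033 over all genes. With each sample re-centred on its median the differences of all genes shifted up by 0.14 in PAT1 and 0.19 in PAT3. The higher share of the called genes then went from 39.6% to 55.3% in PAT1 and from 43.7% to 66.1% in PAT3, and the calls of the 9 genes against Control did not change.

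**Figure D1:**
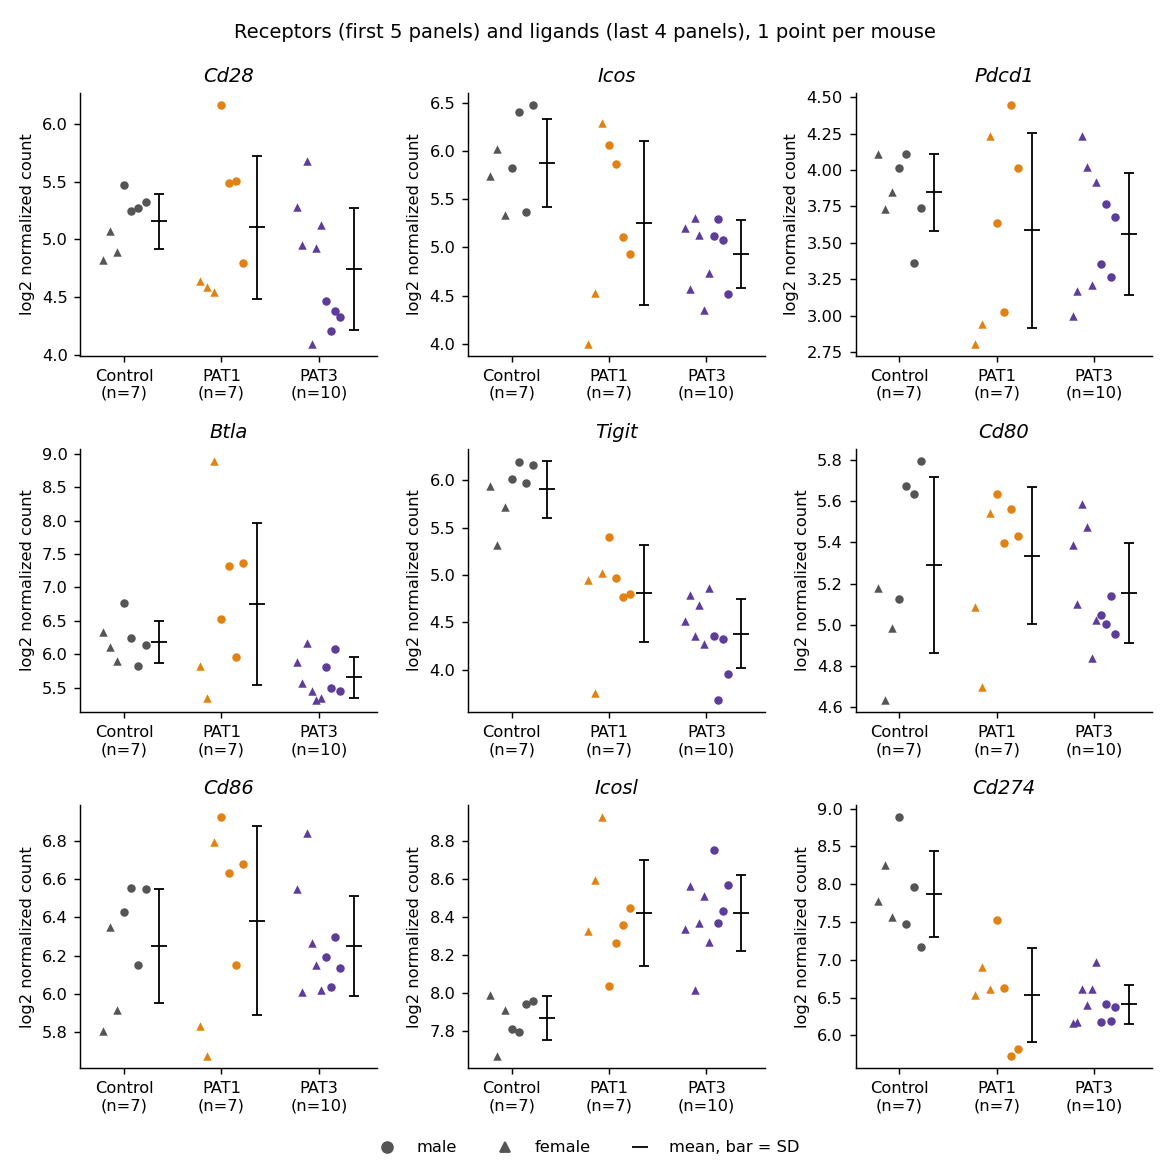
Log2 normalized count of each of the 9 genes (vertical axes, 1 panel per gene with its own range) in every mouse of the Control, PAT1 and PAT3 groups, circles for males and triangles for females, with the group mean and SD in black. For Tigit and Cd274 the PAT3 points lie below all Control points, for Icosl all points of both antibiotic groups lie above all Control points, and Btla in PAT1 reaches from 5.34 to 8.89.

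Among the receptors, Tigit showed the largest fall. Its log2 values ran from 5.32 through a median of 5.97 to 6.20 in Control, from 3.75 through 4.95 to 5.40 in PAT1 and from 3.68 through 4.36 to 4.86 in PAT3. All PAT3 mice were below all Control mice, and in PAT1 only replicate 1, the highest of its group, was above the lowest Control mouse. The difference from Control was -1.09 (SE 0.21, adjusted p = 0.00054 by limma, lower than the Control mean in 7 of 7 mice) in PAT1, a 2.14-fold fall. In PAT3 it was -1.52 (SE 0.19, adjusted p = 1.28e-06, 10 of 10 mice), a 2.87-fold fall. The order of the means was Control, PAT1, PAT3, and the step from PAT1 to PAT3 (-0.43, 95% interval -0.83 to -0.029, adjusted p = 0.142) did not pass the threshold, although it was called in males alone (-0.90, adjusted p = 0.0108), against 0.0074 in females (adjusted p = 0.988). The median count was 73 (Control), 23 (PAT1) and 24 (PAT3), for a counting error of 11.7%, 20.9% and 20.4%. Counts of Tigit ran from 14 to 50 in PAT1 and from 12 to 34 in PAT3, and the part of probe background in them was not tested.

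Icos, the inducible receptor, was lower in PAT3. Log2 values ran from 5.33 through 5.82 to 6.48 in Control, from 3.998 through 5.11 to 6.29 in PAT1 and from 4.35 through 5.09 to 5.30 in PAT3. PAT3 and Control did not overlap, while PAT1 covered the whole range of PAT3 and most of Control. The difference was -0.95 in PAT3 (SE 0.27, adjusted p = 0.00733 by limma, 10 of 10 mice), a 1.93-fold fall. In PAT1 it was -0.62 (95% interval -1.22 to -0.030, adjusted p = 0.151) and depended on 1 sample: without PAT1 replicate 7, the one with the highest B cell marker mean, it was -0.80 with an adjusted p of 0.0432. PAT3 and PAT1 did not differ beyond their spread (-0.33, 95% interval -0.88 to 0.22). The median count of Icos was 68 (Control), 27 (PAT1) and 33 (PAT3), for a counting error of 12.1%, 19.2% and 17.4%. The part of probe background was not tested.

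Cd28, the receptor of CD80 and CD86, stood at 5.16 ± 0.24 for the 7 Control mice, 5.11 ± 0.62 for the 7 PAT1 mice and 4.74 ± 0.53 for the 10 PAT3 mice (mean ± SD of log2 values). All 3 groups overlapped. The differences were -0.052 in PAT1 (95% interval -0.58 to 0.47) and -0.41 in PAT3 (95% interval -0.90 to 0.071, adjusted p = 0.183 by limma). In PAT3 the call turned on the model: with the size factor as a covariate it was -0.49 (adjusted p = 0.0105), with sample weights -0.51 (adjusted p = 0.0125) and in males alone -0.98 (adjusted p = 0.0129), against 0.080 in females. The counts of Cd28 stayed between 20 and 57 in all samples while total counts spanned 171671 to 782392, so its normalized level fell with depth (r = -0.88 with the log2 total count over 24 deviations from group means). The part of depth in the Cd28 values was not tested beyond that covariate, and the part of probe background was not tested.

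Pdcd1 had the lowest counts of the 9 genes, with group medians of 15 (Control), 8 (PAT1) and 12.5 (PAT3). Its log2 level averaged 3.85 ± 0.27 over the 7 Control mice, 3.59 ± 0.67 over the 7 PAT1 mice and 3.56 ± 0.42 over the 10 PAT3 mice (SD), with full overlap. The differences were -0.26 in PAT1 (95% interval -0.76 to 0.24) and -0.28 in PAT3 (95% interval -0.75 to 0.18), and the counting error at the group medians was 25.8% to 35.4% per sample.

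Btla differed among the 3 groups (adjusted p = 0.0309 by the moderated F-test of limma) but from Control in neither antibiotic group. Its log2 values ran from 5.82 through 6.14 to 6.77 in Control, from 5.34 through 6.52 to 8.89 in PAT1 and from 5.31 through 5.53 to 6.17 in PAT3. PAT1 was the most spread group, and its highest mouse, replicate 7, was also the one with the highest B cell marker mean. PAT1 replicates 2 and 4 (7.32 and 7.36) lay above all Control mice too. Their B cell marker means (7.30 and 7.05) were likewise above the Control maximum of 6.57. The difference from Control was 0.56 in PAT1 (95% interval -0.16 to 1.28) and -0.53 in PAT3 (95% interval -1.20 to 0.13), although all 10 PAT3 mice were below the Control mean. Without PAT1 replicate 7 the PAT1 difference was 0.20, and over all runs without 1 sample it ran from 0.20 to 0.79. It became called in PAT1 with the T cell marker mean as a covariate (1.30, adjusted p = 0.0120) and in PAT3 with sample weights (-0.59, adjusted p = 0.0321). Between PAT3 and PAT1 it was -1.09 (SE 0.32, adjusted p = 0.0551), which missed the threshold narrowly and passed it under voom on the recovered counts (-1.14, adjusted p = 0.0431), under quantile normalization (-1.004, adjusted p = 0.0477) and when re-centred on the median (-1.05, adjusted p = 0.0303). With the B cell marker mean as a covariate it shrank to -0.17 (adjusted p = 0.671) and with the T cell marker mean to -0.34 (adjusted p = 0.991). Tnfrsf14, the ligand of BTLA, was not called, with differences from Control of -0.28 in PAT1 and -0.084 in PAT3.

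Cd274, the PD-L1 gene, changed most among the ligands. Log2 values ran from 7.16 through 7.77 to 8.89 in Control, from 5.72 through 6.61 to 7.52 in PAT1 and from 6.16 through 6.39 to 6.97 in PAT3. PAT3 did not overlap Control. In PAT1 replicate 1 alone, at 7.52, reached into the Control range, above 2 of its 7 mice. Cd274 fell by 1.33 in PAT1 (SE 0.25, adjusted p = 0.00044 by limma, 7 of 7 mice), a 2.52-fold fall, and by 1.46 in PAT3 (SE 0.23, adjusted p = 2.25e-05, 10 of 10 mice), a 2.75-fold fall. PAT3 and PAT1 differed by -0.13 (95% interval -0.60 to 0.35). The Control mice themselves spread over 1.72 log2 units, from replicate 4 to replicate 1, and the call held without each of the 24 samples in turn.

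Icosl, the ligand of ICOS, was the only 1 of the 9 genes called higher. Its log2 values ran from 7.67 through 7.91 to 7.99 in Control, from 8.04 through 8.36 to 8.93 in PAT1 and from 8.02 through 8.40 to 8.75 in PAT3. Every mouse of both antibiotic groups was above every Control mouse. The rise was 0.55 in PAT1 (SE 0.13, adjusted p = 0.00326 by limma) and 0.55 in PAT3 (SE 0.12, adjusted p = 0.00104), 1.47-fold in each, and PAT3 and PAT1 differed by -0.0021 (95% interval -0.25 to 0.24). Within groups Icosl was higher in deeper samples (r = 0.80 with the log2 total count over 24 deviations from group means), and with the size factor as a covariate both rises stayed called. With each sex alone the rise in PAT1 was 0.40 in males (adjusted p = 0.129) and 0.76 in females (adjusted p = 0.0763).

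Cd80 and Cd86, the ligands shared by CD28 and its inhibitory rival CTLA4, did not pass the test in either group with both sexes in the fit. Cd80 averaged 5.29 ± 0.43 over the 7 Control mice, 5.34 ± 0.33 over the 7 PAT1 mice and 5.16 ± 0.24 over the 10 PAT3 mice (SD), and Cd86 averaged 6.25 ± 0.30, 6.38 ± 0.50 and 6.25 ± 0.26 in the same order. Both genes overlapped fully between the groups. The 95% interval of the difference from Control was -0.32 to 0.42 in PAT1 and -0.48 to 0.21 in PAT3 for Cd80. In males alone Cd80 was called lower in PAT3 (-0.52, adjusted p = 0.0477 by limma), against 0.30 in females. For Cd86 it was -0.26 to 0.53 in PAT1 and -0.36 to 0.36 in PAT3.

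**Figure D2:**
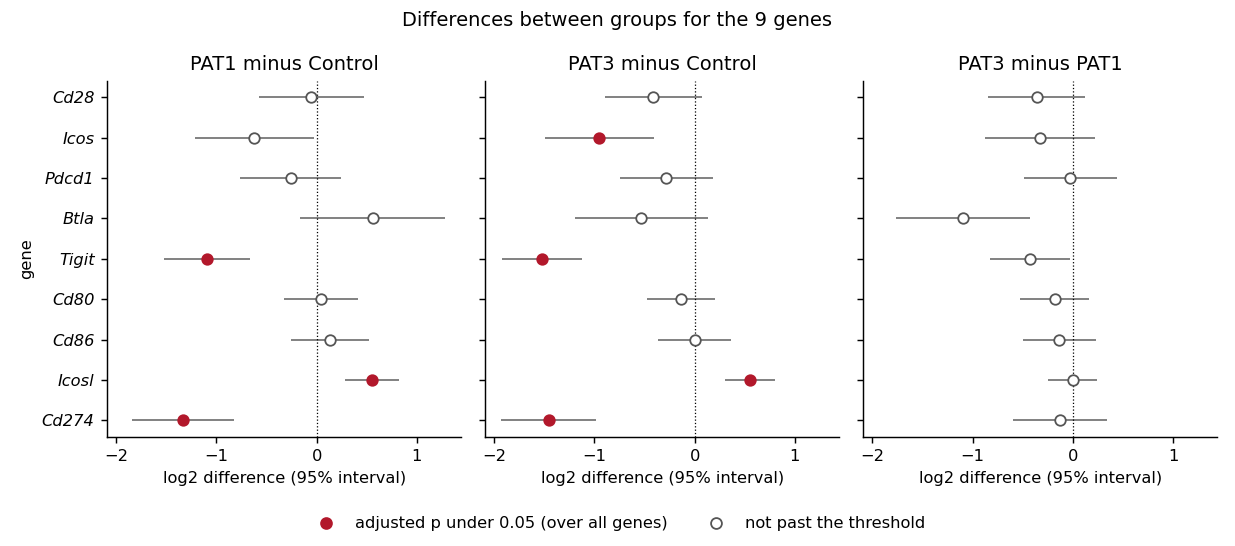
Log2 difference between groups (horizontal axis) with its 95% interval for each of the 9 genes, with PAT1 and PAT3 set against Control in the first panels and against each other in the last, filled where the adjusted p over all genes was under 0.05. Tigit and Cd274 are filled left of 0 and Icosl right of 0 against Control in both antibiotic groups, Icos is filled in PAT3 only, and no gene is filled between PAT3 and PAT1.

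Groups without overlap were counted as a second view. Icosl was the 1 gene of the 9 whose PAT1 and Control values did not overlap, beside 6.22% of all genes, and Tigit, Icos, Cd274 and Icosl, 4 of 9, did not overlap between PAT3 and Control, beside 9.32% of all genes. Between PAT3 and PAT1 0 of 9 genes were called by limma, beside 4.2% of all genes. At an unadjusted p under 0.05 there were 2 of 9 (Btla and Tigit) beside 156 of all genes, the methods' test (aov and TukeyHSD per gene, as the study ran it) gave 0 of 9 and 0 of all genes, and voom gave 1 of 9, Btla, and 47 of all genes.

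Sex was tested because the groups held unequal numbers of males and females. Female and male mice differed in 0 of 9 genes by limma, beside 0.366% of all genes, and in 0 of 9 at an unadjusted p under 0.05, beside 64 of all genes. Treatment by sex was called in 0 of 9, beside 0.183% of all genes, with 3 of 9 at an unadjusted p under 0.05 (Cd28, Cd80 and Tigit) beside 100 of all genes. For Cd28 the adjusted p of that test was 0.137. Its male mean for Control, PAT1 and PAT3 was 5.33, 5.49 and 4.34, and its female mean 4.93, 4.59 and 5.01, so the order of the groups was not the same in males and females.

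Within a sample the difference between 2 genes does not depend on the size factor, and 7 such pairs were compared in 3 contrasts each by two-sided exact permutation tests (21 tests, 5 past the threshold after Benjamini-Hochberg adjustment). The pairs were chosen with earlier results of these data known. Where a gene of a pair was called on its own, the pair test is not separate evidence. Icosl minus Icos, ligand over receptor, averaged 1.99 ± 0.50 over the 7 Control mice, 3.16 ± 0.87 over the 7 PAT1 mice and 3.49 ± 0.48 over the 10 PAT3 mice (SD). Its lowest PAT3 mouse, at 2.71, lay above the highest Control mouse, at 2.58. The change was 1.503 in PAT3 (exact permutation p = 5.14e-05, the smallest this design allows, adjusted p = 0.00108) and 1.18 in PAT1 (exact permutation p = 0.0105, adjusted p = 0.0441). Cd274 minus Cd80, a pair of partners that also bind each other, averaged 2.58 ± 0.88, 1.199 ± 0.74 and 1.25 ± 0.38 in the same order. It fell by 1.38 in PAT1 (adjusted p = 0.0441, exact permutation test) and by 1.32 in PAT3 (adjusted p = 0.00648, exact permutation test). Tnfrsf14 minus Btla was 1.29 higher in PAT3 than in PAT1 (adjusted p = 0.0441, exact permutation test). The 3 results at 0.0441 were fragile: in the 24 runs without 1 sample, Icosl minus Icos in PAT1 stayed past the threshold in 3, Cd274 minus Cd80 in PAT1 in 6 and Tnfrsf14 minus Btla in 5, with adjusted p-values up to 0.0955, 0.0887 and 0.0870. The ratios of the CD28 pathway, Cd80 minus Cd28, Cd86 minus Cd28, Cd86 minus Cd80 and Icos minus Cd28, were not past the threshold in any contrast, the nearest being Cd86 minus Cd28 in PAT3 (0.41 higher, adjusted p = 0.123, exact permutation test).

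**Figure D3:**
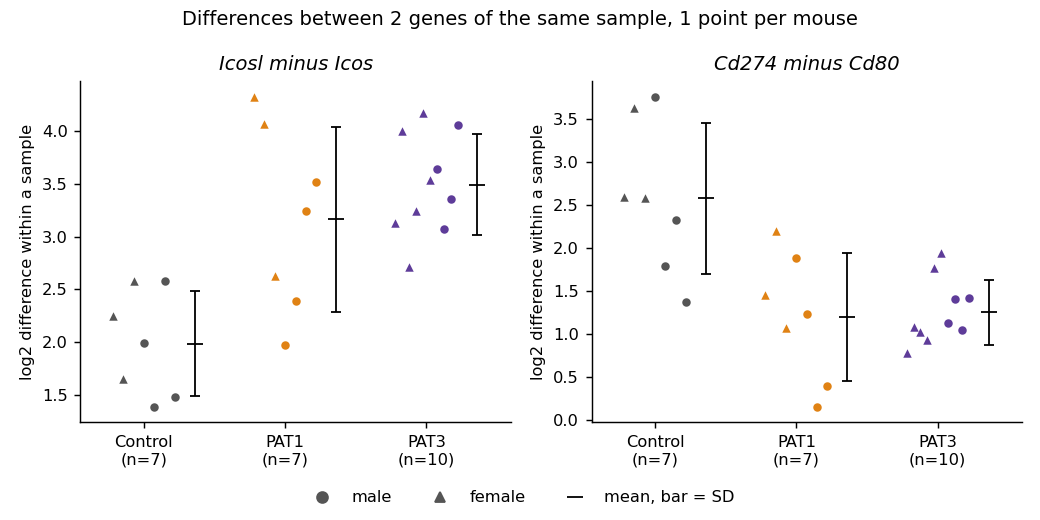
Log2 difference between 2 genes of the same sample (vertical axes) for Icosl minus Icos and Cd274 minus Cd80, 1 point per mouse, circles for males and triangles for females, with the group mean and SD in black. The PAT3 points of Icosl minus Icos start at 2.71, above the highest Control point at 2.58, and both antibiotic groups lie mostly below Control for Cd274 minus Cd80.

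The genes of the cells that carry these proteins moved too, and are given beside the results. The mean of 12 T cell markers was 6.31 for Control mice (6.20 to 6.42), 5.82 for PAT1 mice (5.37 to 6.39) and 5.32 for PAT3 mice (4.83 to 5.82). PAT3 lay below Control without overlap. Of the 12, 3 fell in PAT1 (Cd8a, Cd3e and Cd6) and 9 fell in PAT3, and none was at 0 counts in any sample. The mean of 9 B cell markers was 5.45 for Control mice (4.94 to 6.57), 6.08 for PAT1 mice (4.53 to 8.51) and 4.82 for PAT3 mice (4.33 to 5.66), with 0 called in PAT1 and 1 lower in PAT3, Cd79b. Of 16 myeloid and dendritic cell markers 2 rose and 3 fell in PAT1 and 3 fell in PAT3, and of 7 enterocyte markers 2 rose and 1 fell in each. The myeloid list mean lay between 6.56 and 7.00 for Control mice, 6.41 and 6.91 for PAT1 mice and 6.36 and 6.90 for PAT3 mice, and the enterocyte list mean between 10.2 and 11.4, 10.5 and 11.7, and 9.91 and 11.7. Of 9 natural killer and innate lymphocyte markers 1 fell in PAT1 and 3 fell in PAT3. The falls of the myeloid list in PAT3 and of the natural killer list in PAT1 were near the shares of all genes. With the T cell marker mean as a covariate, Cd274, Tigit and Icosl stayed called in PAT1. Only PAT1 replicates 2 and 7 (6.29 and 6.39) lay within the Control range of that mean. The covariate and the treatment are therefore hard to tell apart in PAT1 as well. The 4 calls in PAT3 were all lost (Tigit -0.84, adjusted p = 0.156, Cd274 -0.88, adjusted p = 0.245, Icosl 0.45, adjusted p = 0.286, and Icos -0.0071, adjusted p = 0.999), and 9 of all genes were called there. As the T cell marker means of PAT3 and Control do not overlap, that covariate and the treatment cannot be told apart in PAT3.

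How far each gene moved against such lists was measured as its value minus the list mean within each sample (24 exact permutation tests, 11 past the threshold after adjustment). The lists too were chosen with earlier results known, so these tests are not separate evidence for genes called on their own. For genes not called on their own, a difference can come from a change of the list mean while the gene stays level or falls. For Icos the distance from the T cell markers changed by -0.13 in PAT1 (adjusted p = 0.787) and 0.030 in PAT3 (adjusted p = 0.903), neither past the threshold by exact permutation. Cd28 rose against the T cell markers by 0.57 in PAT3 (adjusted p = 0.0108, exact permutation). Cd28 itself differed from Control by -0.41 there and was not called, while the list mean went from 6.31 to 5.32. The level of Cd28 followed depth (r = -0.88), and the part of depth in its rise against the list was not tested. Btla rose against the T cell markers by 1.05 in PAT1 (adjusted p = 0.0126) and by 0.45 in PAT3 (adjusted p = 0.0459), by exact permutation, while its change against the B cell markers did not pass (-0.072 and 0.099, adjusted p = 0.845 and 0.605, exact permutation). Btla itself differed from Control by 0.56 in PAT1 and -0.53 in PAT3, neither called. With the median of the T cell list in place of its mean neither Btla result passed, and the one in PAT3 stayed past the threshold in 12 of the 24 runs without 1 sample (adjusted p up to 0.0999). The gap of Icosl to the B cell markers widened by 1.18 in PAT3 (adjusted p = 0.00432), against -0.079 in PAT1 (adjusted p = 0.903, not past the threshold), and that to the myeloid and dendritic cell markers by 0.69 in PAT1 (adjusted p = 0.0109) and 0.70 in PAT3 (adjusted p = 0.00432), all by exact permutation. Cd86 rose against the B cell markers by 0.63 in PAT3 (adjusted p = 0.0108, exact permutation), which did not pass with the median of the list (adjusted p = 0.0730). Cd86 itself differed from Control by 0.00062 there, while the list mean went from 5.45 to 4.82. Cd274 fell by 1.198 and 1.31 against the myeloid and dendritic cell markers in PAT1 and PAT3 (adjusted p = 0.0108 and 0.00247, exact permutation). Against the enterocyte markers it fell by 1.67 in each (adjusted p = 0.0108 and 0.00247, exact permutation).

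The genes whose level went up and down with a member from mouse to mouse were ranked by Pearson's r of the deviations from the group means over the 24 samples, which share depth and tissue sampling, so the values describe and carry no test. Btla followed B cell genes closely, with 0.95 for Cd79b, a chain of the B cell receptor complex, 0.95 for Cd22, its inhibitory partner, 0.94 for H2-DMb2 and 0.95 for the B cell marker mean. Cd86 was most like Cd48 (0.85), Ncf4 (0.82) and Il10ra (0.80), and Icos like Ncf4 (0.82), Slamf7 (0.79) and Arhgdib (0.79), all leukocyte genes. Cd28 was most like Hcst (0.85), Lcp2 (0.80) and Tnfsf14 (0.79), and Cd80 like Ptafr (0.71), Tagap (0.70) and Tyrobp (0.69). Icosl went with Syk (0.77), Ptpn6 (0.75) and Tfrc (0.74). The closest genes to Cd274 were the interferon-induced factor Irf7 (0.54), Prdm1 (0.52) and Ltf (0.52), those to Tigit were Spn (0.64), Cd6 (0.62) and Il7r (0.60), and those to Pdcd1 were Il18 (0.65), Mbl2 (0.62) and Ccl19 (0.58). The r values given are the highest over all genes outside the 9, and how much of their size comes from that choice was not tested. Differences between groups are not part of these r values. Against Control, Irf7 was called higher in PAT1 (1.38, adjusted p = 0.0153 by limma), where Cd274 fell. Prdm1 was called lower in PAT3 (-0.66, adjusted p = 0.0331 by limma), and Ltf was called in neither group. Among the 9 genes, Icos and Cd86 were the pair most alike (0.77) and Cd28 and Icosl the most opposed (-0.65), both of the latter also being the genes that followed depth most closely.

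**Figure D4:**
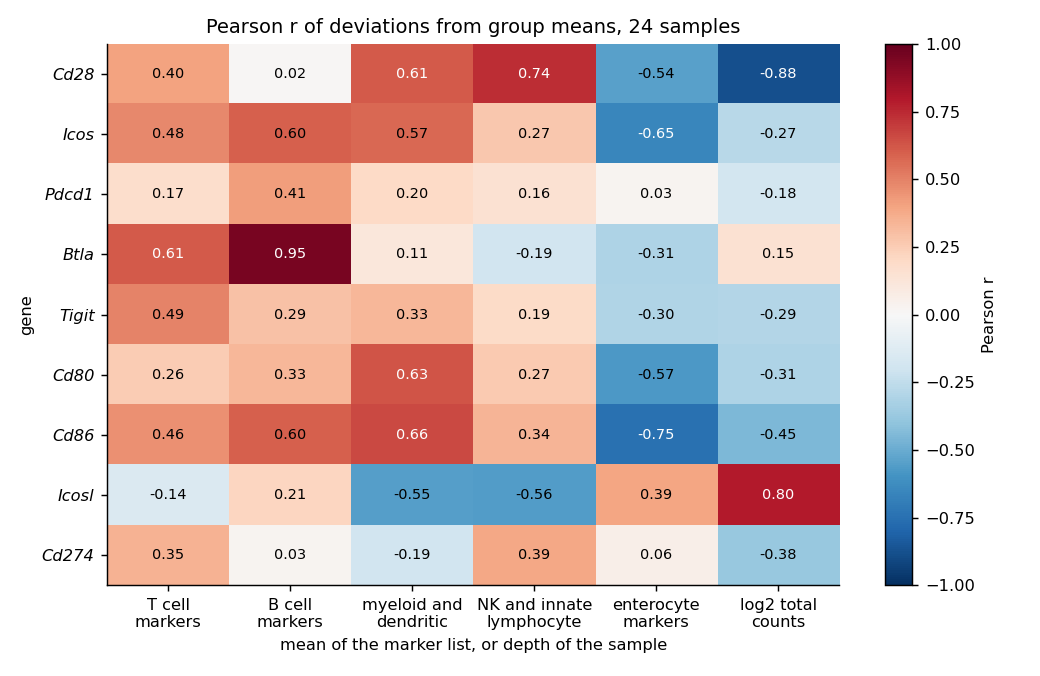
Pearson r of the deviations from group means over 24 samples between each of the 9 genes (vertical axis) and the mean of 5 marker lists or the log2 total count of the sample (horizontal axis), red for positive and blue for negative. Btla stands out with the B cell markers (0.95), Cd28 (-0.88) and Icosl (0.80) with the total count, and Cd86 with the enterocyte markers (-0.75).

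**Figure D5:**
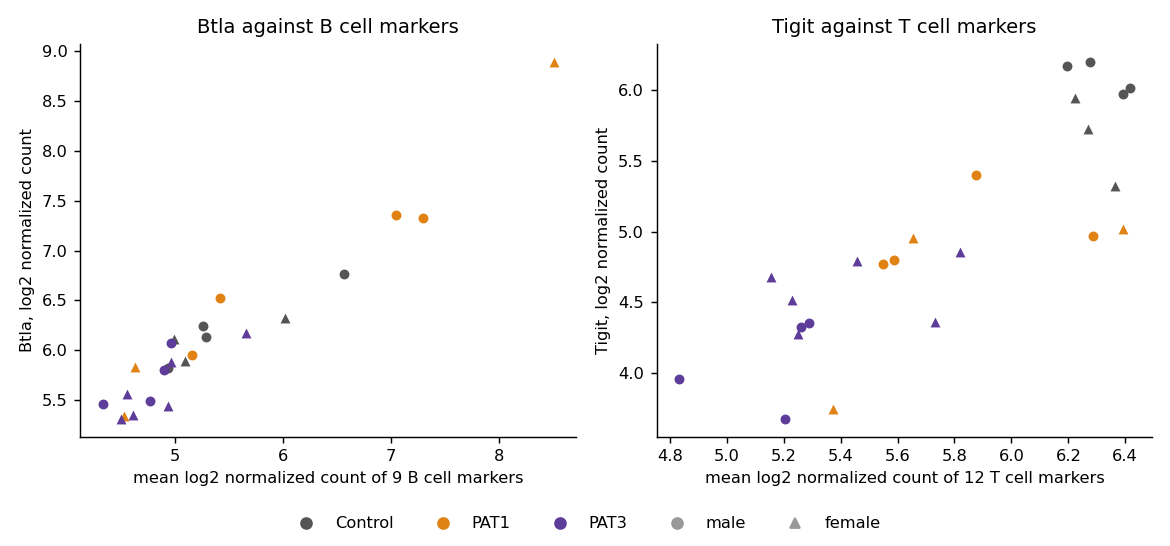
Btla against the mean of 9 B cell markers, and Tigit against the mean of 12 T cell markers, all in log2 normalized counts, 1 point per mouse with colour for the group, circles for males and triangles for females. Btla rises with the B cell markers in all groups up to PAT1 replicate 7 at 8.89. Only PAT1 replicates 2 and 7 have T cell marker means within the Control range (6.29 and 6.39). Both lie below all Control points for Tigit, and both have the highest B cell marker means of all mice (7.30 and 8.51).

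Of 28 other costimulation receptors and ligands in the table, 4 were called lower and 0 higher in PAT1, beside 11.2% and 7.31% of all genes, with a list median of -0.17. They were Ceacam1, an adhesion molecule abundant on gut epithelium (-1.26, adjusted p = 0.00287), the CD28 rival Ctla4 (-0.97, adjusted p = 0.00203), the T cell receptor partner Cd6 (-0.85, adjusted p = 0.00172) and Tnfrsf9, the gene of 4-1BB (-0.64, adjusted p = 0.0495), all by limma. Tnfrsf9 stayed called in 6 of the runs without 1 sample, and its adjusted p rose to 0.130 there. Its counts were low, with a mean log2 value of 3.02 in PAT1 and 3.65 in Control. In PAT3 11 were called lower and 1 higher, beside 17.9% and 13.9% of all genes, with a median of -0.38. The 6 largest falls were those of Cd6 (-1.39), Cd5, which dampens antigen receptor signals (-1.31), Ctla4 (-1.16), Slamf7 (-1.07), Ceacam1 (-1.05) and Itgal, the alpha chain of the adhesion integrin LFA-1 (-0.97). Adjusted p-values of these 6 ran from 6.32e-07 to 0.00377 by limma, and the other 5 were Cd27, Cd226, Cd48, Cd40lg and Tnfsf8. Of these, Cd27, Cd40lg and Tnfsf8 had low PAT3 means (log2 values of 3.93, 3.44 and 3.89). Cd5 and Cd6 are also among the 12 T cell markers and Ceacam1 among the enterocyte markers, and under quantile normalization Ceacam1 was called in neither group (-0.46 in PAT1 and -0.29 in PAT3). The gene that rose was Cd24a, a glycoprotein of epithelial and immune cells (0.33, adjusted p = 0.0321). Between PAT3 and PAT1, Cd2 (-1.05) and Slamf7 (-0.58) were lower, each with an adjusted p of 0.0401 by limma, and they stayed called in 12 (Cd2) and 11 (Slamf7) of the 24 runs without 1 sample.

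Of 23 genes of the signals below CD28 and ICOS, 2 rose and 1 fell in PAT1, beside 7.31% higher and 11.2% lower of all genes, and 6 rose and 1 fell in PAT3, beside 13.9% higher and 17.9% lower. In PAT1 the phosphatase Ptpn6 (0.49, adjusted p = 0.0120) and the adapter Traf2 (0.36, adjusted p = 0.0283) rose, and Ptpn22, a phosphatase that restrains antigen receptor signals, fell (-0.72, adjusted p = 0.00746), by limma. The 6 that rose in PAT3 were the survival gene Bcl2 (0.68), the kinase Prkcd (0.53), the NF-kB subunits Nfkb2 (0.53) and Rela (0.41) and the adapters Traf3 (0.48) and Traf2 (0.31), with adjusted p-values between 0.00215 and 0.0467 by limma, and Ptpn22 fell again (-0.63, adjusted p = 0.00664). In the 24 runs without 1 sample Prkcd, at 0.0467, stayed called in 11, Traf3 in 21 and Traf2 in 19, and Traf2 in PAT1 stayed called in 18. With the T cell marker mean as a covariate none of the 6 rises in PAT3 was called by limma (lowest adjusted p 0.326). The list median was 0.13 in PAT1 and 0.23 in PAT3. When all samples are re-centred on the median, all differences from Control are higher by the shifts given above. Cell types and receptors were not separated, so the values do not say in which cells, or below which receptor, these genes changed.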

How the data were processed

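Immune gene expression was measured in terminal ileum RNA of 24 mice, grouped by the treatment in the sample labels. The legend of the study gives 1 more PAT1 and 1 fewer PAT3 mouse than the labels, and the labels were followed. Normalization of the nCounter counts by the authors used DESeq2 (version not stated), and log2 values of the normalized counts were deposited. Background subtraction was not stated. Per the labels RNA came from TRIzol and a column cleanup, while the methods name another Qiagen kit. The deposited log2 values came from counts divided by 1 size factor per sample: whole counts were recovered from all values with a largest deviation of 0.000278 counts (tolerance 0.01), and 19 of 13128 values were listed at 0. Totals ranged from 171671 to 782392 counts, and the counting errors given (1 over the square root of the median count) cover counting only, while SDs also hold the spread between mice. No 2 samples agreed within sampling noise (smallest chi-square per degree of freedom 3.978 over 276 pairs).

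Contrasts were fitted on all 547 genes and 24 samples with limma 3.58.1 in R 4.3.3 (lmFit and eBayes, no covariate, no filter, no pseudocount), with Benjamini-Hochberg adjustment over all genes in each contrast and a threshold of 0.05. Within-sample differences were compared with two-sided exact permutation tests in Python 3.11.15. The fits were tested on simulated data. Alternatives were re-centring on the median, quantile normalization, a minimum mean log2 value of 4, a pseudocount of 1, limma voom on the recovered counts, sample weights, covariates (sex, size factor, B or T cell marker mean), each sex alone, leaving out each sample, and the methods' test (aov and TukeyHSD). The members, gene lists, pairs and motifs were chosen with earlier results of these data known. Named genes were the 9 members, the called genes of the costimulation list (the 6 with the largest change where more were called), Tnfrsf14 and the 3 genes most like each member. Called genes of the signal list were named after their values were seen. Promoters came from RefSeq, assembly GRCm38.p6. Replicate numbers follow the order of the samples.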

Additional observations from a re-analysis of the deposited data

Results flagged for a closer look

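Of 27 checks for a single mouse far from its group (each of the 9 genes in each of the 3 groups), 1 stood out: Tigit in PAT1 replicate 6 was at a log2 value of 3.752, while the other PAT1 mice lay between 4.77 and 5.40. Chance gives such a gap in about 1 of 20 groups. This female had 14 counts of Tigit, the lowest T cell marker mean of PAT1 (5.37) and a B cell marker mean of 4.53. Without it the Tigit difference between PAT3 and PAT1 was -0.60 (adjusted p = 0.0205 by limma), and Tigit stayed called against Control in PAT1.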

How the results depend on the processing

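The falls of Cd274 and Tigit and the rise of Icosl kept their direction in both antibiotic groups under all 38 alternatives run on them, 24 of which left out 1 sample. Cd274 in PAT1 kept its call under all of these (adjusted p at most 0.0357), and the calls of the 3 genes in both groups and of Icos in PAT3 held in all runs without 1 sample. Calls were lost with the T cell marker covariate in PAT3 and with each sex alone: Icosl in PAT1 in males (adjusted p = 0.129) and females (0.0763), Icosl in PAT3 (0.111), Tigit in PAT1 (0.0806) and Icos in PAT3 (0.245) in females. The cause of these changes was not tested, and each sex alone holds fewer mice. Icos in PAT1 became called with the B cell marker covariate (-0.86, adjusted p = 0.0135), with sample weights (-0.76, 0.0359), without PAT1 replicate 7 (-0.80, 0.0432) and without PAT1 replicates 1 and 7 (-0.99, 0.0102), a setting added after the data were seen. Btla between PAT3 and PAT1 became called without Control replicate 1 (-1.09, 0.048), PAT1 replicates 3 (-1.23, 0.0424), 5 (-1.25, 0.0189) or 6 (-1.33, 0.0146) and PAT3 replicates 7 (-1.15, 0.0246) or 10 (-1.06, 0.0479).

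Between PAT3 and PAT1, 0 members and 23 of all genes were called in the analysis reported. Of the members 1 was called when re-centred on the median (57 of all genes), with quantile normalization, the low filter (44), voom (47) and sample weights (93), and 3 in males alone (129). With the size factor, B cell or T cell marker covariate, in females alone, without PAT1 replicates 1 and 7 and by the methods' test 0 of all genes were called. Without 1 sample, 0 to 2 members and 0 to 102 of all genes were called in this contrast, the most without PAT3 replicate 7 (102), PAT1 replicates 6 (86) and 5 (71) and PAT3 replicate 10 (55). Of the pathway genes 7 were called in PAT1 and 19 in PAT3. These became 14 and 29 with sample weights, where 309 of all genes were called among the 3 groups and 287 in PAT3, and 14 in PAT1 with the size factor covariate or without PAT1 replicates 1 and 7. Without 1 sample the number in PAT1 ran from 5 to 11, the 11 without PAT1 replicate 7. With the T cell marker covariate 2 members and 59 of all genes were called among the 3 groups, and 0 members, 1 pathway gene and 9 of all genes in PAT3. Females alone gave 1 member and 37 of all genes among the groups, 1 member, 0 pathway genes and 23 of all genes in PAT1, and 2 members, 5 pathway genes and 57 of all genes in PAT3. Males alone gave 57 of all genes and 3 pathway genes in PAT1 and 12 pathway genes in PAT3. With each sex alone 0 of the pair and 0 of the marker list comparisons passed, since the exact test of so few mice can hardly pass after adjustment. Without 1 sample, 2 to 6 pair comparisons passed, and 0 to 1 member was called for treatment by sex (1 without PAT1 replicate 4 or PAT3 replicate 8).

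Signs turned only for differences that were not called, with 1 exception, Cd5 in PAT3, which was 0.39 with the T cell marker covariate. Cd5 itself belongs to the 12 markers averaged in that covariate, which cannot be told apart from the treatment in PAT3. In PAT1, Cd28 became 0.092 when re-centred on the median, 0.017 with quantile normalization, 0.29 with the T cell marker covariate and 0.16 in males. Cd80 there became -0.030 with the B cell marker covariate, -0.0096 with the size factor covariate, -0.053 in males and -0.055 without PAT1 replicates 1 and 7, and Cd86 became -0.013 with the B cell marker covariate and -0.058 without those replicates. In PAT3, the T cell marker covariate gave 0.95 for Btla, 0.28 for Cd28, 0.16 for Cd80 and 0.0024 for Pdcd1. Females alone gave 0.080 for Cd28 and 0.30 for Cd80, males alone -0.25 for Cd86 and 0.060 for Tnfrsf14. Re-centring gave 0.057 for Cd80 and 0.11 for Tnfrsf14, quantile normalization 0.18 for Cd80, and Cd86 was -0.0084 by voom, -0.028 with sample weights and -0.020 with the size factor covariate. Between PAT3 and PAT1, Icosl became 0.045 re-centred, 0.058 with sample weights, 0.059 with the B cell marker covariate, 0.25 in males and 0.022 without PAT1 replicates 1 and 7. Pdcd1 became 0.021 re-centred, 0.23 with quantile normalization, 0.048, 0.24 and 0.12 with the size factor, B cell and T cell marker covariates, 0.26 in females and 0.11 without those replicates. Cd274 became 0.097 with sample weights, 0.032 and 0.17 with the size factor and T cell marker covariates and 0.087 without those replicates. Cd86 and Icos became 0.16 and 0.14 with the B cell marker covariate, 0.15 and 0.15 with the T cell marker covariate and 0.058 and 0.040 without those replicates. Females alone gave 0.21 for Cd86, 0.42 for Cd28, 0.12 for Cd80 and 0.0074 for Tigit, and quantile normalization 0.047 for Cd80. Without 1 sample, signs turned in the ranges -0.063 to 0.15 (Cd80, PAT1), -0.23 to 0.041 (Cd28, PAT1), -0.074 to 0.051 (Cd86, PAT3), -0.13 to 0.021 (Tnfrsf14, PAT3) and, between PAT3 and PAT1, -0.26 to 0.039 (Cd274), -0.16 to 0.12 (Pdcd1) and -0.066 to 0.082 (Icosl). The low filter removed Pdcd1, which had 5 to 29 counts per sample. No paired analysis was run, because each litter was put into 1 group as a unit and the labels name no pairs of mice. The replicate numbers used here only name samples.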

Other observations

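The distance of Tigit from the T cell marker mean and that of Cd274 from Pdcd1 were looked at after their values had been seen, and are given with no test. Tigit minus the mean of the 12 T cell markers averaged -0.40 over the Control mice (-1.04 to -0.033), -1.01 over the PAT1 mice (-1.62 to -0.48) and -0.94 over the PAT3 mice (-1.53 to -0.48), with overlapping ranges. Cd274 minus Pdcd1, the ligand and the receptor of the PD-1 pair, averaged 4.02 in the Control mice (3.36 to 4.87), 2.95 in the PAT1 mice (1.27 to 3.95) and 2.85 in the PAT3 mice (2.37 to 3.41). The highest PAT3 mouse lay just above the lowest Control mouse. Pdcd1 had 5 to 29 counts per sample.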
